A study of Mus musculus with 18 samples.

Results

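Red cells make heme and globin in large amounts, build a specialised membrane skeleton, and then lose their nucleus. The 8 genes described here were listed as red-cell genes, and not all of them act in those steps: Alas2, Fech, Hbb-b2, Slc4a1, Epb42, Bpgm, Tent5c (older symbol Fam46c) and Tspan33. They were taken by name, with earlier results of these data known. Every probe set that the array annotation assigns to 1 of them alone was used. That gave 21 probe sets for the 8 genes, out of 45037 probe sets tested and 18193 genes that have a probe set of their own.

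The samples were left ventricles of wild-type female C57Bl/6 mice, 3 to 4 months old. The pregnancy groups were MP, taken in mid-pregnancy on day 11 of gestation, LP, taken late in pregnancy on day 18 or 19, and 0PP, taken up to 12 hours after delivery. The exercise groups were 7EX and 21EX (voluntary wheel running for 7 and 21 days). The NP/Sed controls were sedentary virgin females in diestrus. Each group had 3 arrays, and each array held pooled RNA from 2 to 3 ventricles, so an SD or a p-value here measures the spread between pools. Before freezing, each heart had beaten out its blood in PBS and had lost its atria, right ventricle, vessels and connective tissue. Values are deposited RMA values on the log2 scale, where a difference of 1 is a change by a factor of 2, and differences are given with their standard error. A gene is said to rise or fall where the limma p, adjusted over all probe sets of the comparison, is under 0.05, and is counted as called if any probe set that passed had also changed by 75% or more.

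As background, Alas2 makes the first and rate-limiting product of heme synthesis in erythroid cells, and globin takes up the finished heme. Young red cells, the reticulocytes, have no nucleus but carry mRNA for globin, Alas2 and other late erythroid products for some time after they enter the blood. Maternal red-cell production is known to increase in pregnancy, which in mice includes production in the spleen.

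At mid-pregnancy 5 of the 8 members moved together. Alas2, Tent5c, Slc4a1, Bpgm and Hbb-b2 were higher in MP than in NP/Sed, by log2 differences of 1.46, 1.63, 0.99, 0.93 and 1.19 at 1 probe set each, while no probe set of Fech, Epb42 or Tspan33 passed the test in any of the comparisons made. These 5 genes were lower in LP than in MP. Called genes among the 8 members numbered 5 higher and 0 lower in MP against NP/Sed, beside 0.192% of all 18193 genes called higher and 0.176% called lower in that comparison. The members were chosen with earlier results of these data known, so the share over all genes is no test of the list. Leaving out 1 array moved the count of called members. It was 2 without MP array 3 (Alas2 and Tent5c), 3 without NP/Sed array 1 (Alas2, Tent5c and Bpgm), and 4 or 5 without any other array of the 2 groups. In bulk tissue, more cells of a type and more RNA per cell cannot be told apart.

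**Figure D1:**
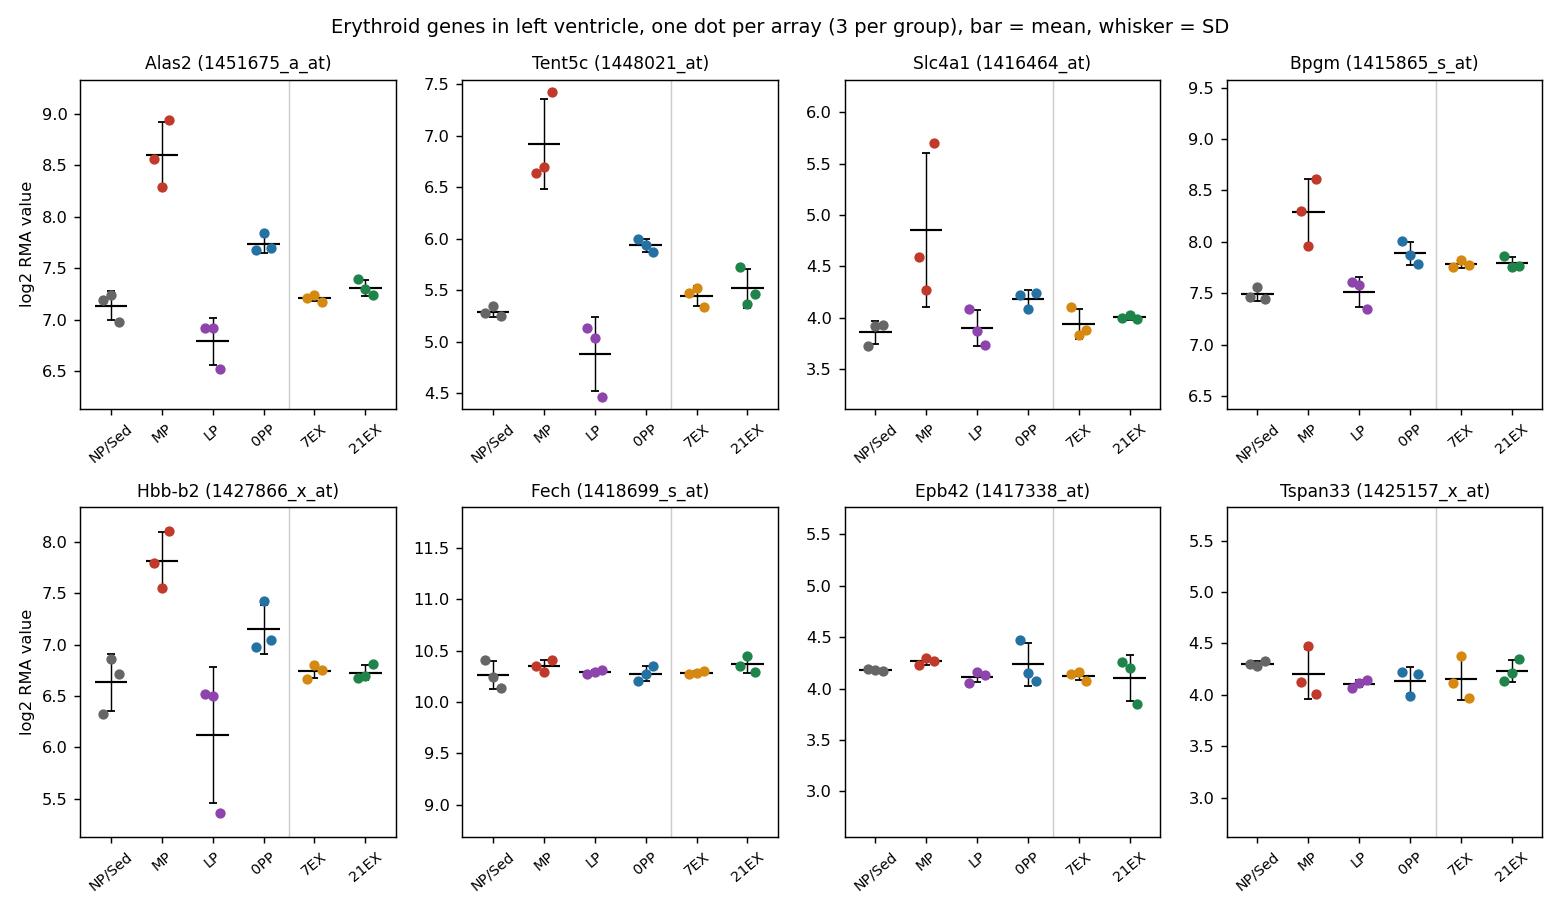
Deposited log2 RMA values of the 8 erythroid genes at the probe set of highest mean, for the 3 arrays of each group (dots), with the mean (bar) and SD (whisker). The pregnancy series runs from NP/Sed to 0PP, and the exercise groups stand at the right. Alas2 lies between 8.29 and 8.94 in MP and at or under 7.84 in every other group. Fech, Epb42 and Tspan33 did not pass the test in any comparison. Some of their groups are apart, with MP above NP/Sed in Epb42 and LP below NP/Sed in Epb42 and Tspan33.

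The start regions of members that moved together and of 1 that did not are shown for the words bound by erythroid factors. GATA1 binds GATA words, and KLF1 binds CACCC words, in erythroid genes. A window of 250 bases before the gene start was given in the RefSeq table (GRCm38.p6) for 5 of the 8 members. Capitals mark matches, on either strand, to the GATA words (AGATAA and, with other first or last letters, the word AGATAG, the word TGATAA and the word TGATAG) and to the CACCC word CCNCACCC. Each line runs 5′ to 3′ on the gene's strand and ends at the base before the start. The Alas2 window is chrX:150547167-150547416 (plus strand), that of Tent5c chr3:100489193-100489442 (minus), that of Bpgm chr6:34476106-34476355 (plus) and that of Epb42 chr2:121036878-121037127 (minus).
Alas2: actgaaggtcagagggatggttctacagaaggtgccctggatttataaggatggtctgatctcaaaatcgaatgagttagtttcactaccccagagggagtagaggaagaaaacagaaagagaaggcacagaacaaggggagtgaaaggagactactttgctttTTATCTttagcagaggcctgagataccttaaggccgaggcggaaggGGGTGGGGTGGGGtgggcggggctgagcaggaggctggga
Tent5c: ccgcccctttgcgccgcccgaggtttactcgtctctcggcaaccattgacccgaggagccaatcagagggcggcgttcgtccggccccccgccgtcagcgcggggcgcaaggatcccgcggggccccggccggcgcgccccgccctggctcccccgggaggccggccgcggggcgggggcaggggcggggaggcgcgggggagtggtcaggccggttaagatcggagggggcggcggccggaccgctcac
Bpgm: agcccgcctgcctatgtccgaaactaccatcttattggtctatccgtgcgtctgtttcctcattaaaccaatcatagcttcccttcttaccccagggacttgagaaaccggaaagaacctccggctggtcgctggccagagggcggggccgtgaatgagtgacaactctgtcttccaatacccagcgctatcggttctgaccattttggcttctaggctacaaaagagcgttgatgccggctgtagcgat
Epb42: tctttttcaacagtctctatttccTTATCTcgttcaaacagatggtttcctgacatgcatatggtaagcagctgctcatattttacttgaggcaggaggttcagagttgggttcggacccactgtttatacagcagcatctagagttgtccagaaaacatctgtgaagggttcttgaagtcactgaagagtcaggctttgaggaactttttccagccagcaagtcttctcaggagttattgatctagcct
Alas2 held 1 GATA match, 86 to 81 bases before the start, and 2 overlapping CACCC matches at 40 to 33 and 35 to 28. Epb42, which did not rise, held 1 GATA match 226 to 221 bases before the start. Tent5c, Bpgm and Tspan33 (the last not printed) held neither word in these windows. Of 32851 RefSeq windows of this length, 26.5% held a GATA word and 14.9% the CACCC word, so the matches are given as a description only.

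Alas2 (chromosome X, 150547417 to 150570622, GRCm38.p6) had 8.56, 8.29 and 8.94 in the MP arrays, against 7.19, 7.24 and 6.98 in the NP/Sed arrays at its only probe set, 1451675_a_at. The lowest MP array was above every array of the other 5 groups. The difference was 1.46 ± 0.13 (95% confidence interval 1.19 to 1.74, adjusted p = 5.61e-05, n = 3 arrays each), a 2.76-fold higher level, and had the smallest p of all probe sets in this comparison (rank 1 of 45037). Leaving out each array of the 2 groups gave 1.29 to 1.62, with an adjusted p of at most 0.00116.

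Fech inserts iron into protoporphyrin, the last step of heme synthesis, in all cells that make heme. Its probe set of highest mean, 1418699_s_at, had 10.35, 10.29 and 10.41 in MP, against 10.41, 10.25 and 10.13 in NP/Sed. These groups overlap, and the difference was 0.09 ± 0.08 (95% confidence interval -0.07 to 0.25, adjusted p = 0.69). The other 3 probe sets of Fech differed by 0.03, -0.08 and -0.02 between MP and NP/Sed. The confidence intervals of the MP differences of Alas2 and Fech, the first and last enzymes of the pathway, do not overlap. In NP/Sed, however, Fech averaged 10.26 at 1418699_s_at and Alas2 7.14. The same added amount of RNA would move Fech far less on the log2 scale. These values therefore cannot show whether Fech changed in a small share of the cells.

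The array has a further 14 genes of heme synthesis and mitochondrial iron import with a probe set of their own. Of these 1 rose and 0 fell in MP, with a median difference of 0.10, beside 1.17% of all genes that rose and 0.94% that fell by the adjusted p alone and a median of 0.01 over all probe sets. The gene that rose was Slc25a37 (mitoferrin), which carries iron into the mitochondria of erythroid cells. Slc25a37 had 7.69, 7.87 and 7.87 in MP, against 7.35, 7.31 and 7.37 in NP/Sed, and the groups did not overlap (0.46 ± 0.07, adjusted p = 0.00364). It too was lower in LP than in MP (-0.44 ± 0.07, adjusted p = 0.00289). Alas1, the form of the first enzyme used outside the erythroid line, differed by 0.18 (adjusted p = 0.361).

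Hbb-b2 is an adult beta globin gene. C57Bl/6 mice carry the beta globin genes Hbb-bs and Hbb-bt in place of Hbb-b1 and Hbb-b2, so a signal at a probe set named Hbb-b2 in these mice has to come from related sequence, and which gene gave it cannot be told apart here. Its 2 probe sets behaved differently. Probe set 1427866_x_at, of the type whose probes can bind related transcripts, had 7.79, 7.55 and 8.11 in MP, against 6.33, 6.86 and 6.71 in NP/Sed. All MP arrays lay above all NP/Sed arrays, and the difference was 1.19 ± 0.23 (adjusted p = 0.0168). It was 1.04 with an adjusted p of 0.106 without MP array 3, and 1.03 with an adjusted p of 0.0719 without NP/Sed array 1. Probe set 1427865_at had 6.96, 6.87 and 6.64 in MP, against 6.84, 6.82 and 7.09 in NP/Sed, and these overlap (-0.09 ± 0.13, adjusted p = 0.819).

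The array also has 4 probe sets that match several adult globin genes at once. They are no members by the rule and are given beside Hbb-b2 as the brighter globin signal. Probe set 1417184_s_at (Hbb-bt, Hbb-bs, Hbb-b2 and Hbb-b1) had 14.04, 14.01 and 14.19 in MP, against 13.45, 13.58 and 13.52 in NP/Sed (0.57 ± 0.11, adjusted p = 0.0178). Probe set 1417714_x_at (Hba-a1 and Hba-a2, the adult alpha globins) had 11.63, 11.27 and 11.79 in MP, against 10.54, 10.80 and 10.65 in NP/Sed (0.90 ± 0.13, adjusted p = 0.00388). The MP arrays were above the NP/Sed arrays at both. The remaining pair of alpha globin probe sets also had every MP array above every NP/Sed array, by 0.35 ± 0.09 at 1428361_x_at (adjusted p = 0.0715) and 0.36 ± 0.10 at 1452757_s_at (adjusted p = 0.0912). These 2 lay between 14.20 and 14.59 in MP, near the highest value of any probe set on these arrays (14.72 to 14.86 by array), where the scale has little room above it. Over the 18 arrays 1427866_x_at followed the 4 several-gene sets with Pearson correlations of 0.94 to 0.98, and 1427865_at with 0.24 to 0.36. Of the 5 globin genes with a probe set of their own outside the members, 0 rose and 0 fell in MP. These 5 were Hba-a1, Hba-a2, Hbb-y, Hbb-bh1 and Hba-x. The single-gene probe sets of Hba-a1 and Hba-a2 differed by 0.10 (adjusted p = 0.624) and -0.24 (adjusted p = 0.329). They averaged only 3.55 and 3.66 over the 18 arrays, against 14.21 at 1428361_x_at and 13.96 at 1452757_s_at. At so low a level they cannot show whether the adult alpha globins changed.

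Slc4a1 (chromosome 11, 102348820 to 102365281) encodes band 3, the anion exchanger of the red-cell membrane. At 1416464_at it had 4.59, 4.27 and 5.70 in MP, against 3.73, 3.92 and 3.93 in NP/Sed. At 1434502_x_at it had 4.59, 3.39 and 4.77 in MP, against 3.10, 3.30 and 3.24 in NP/Sed. The MP arrays were above those of NP/Sed at both but differed widely among themselves, with an SD of 0.75 at each. The differences were 0.99 ± 0.22 (adjusted p = 0.0351) and 1.04 ± 0.25 (adjusted p = 0.0468), and the third probe set, 1431743_a_at, had overlapping groups (0.17 ± 0.11, adjusted p = 0.546). At 1416464_at the call rests on single arrays. Without MP array 3 the difference was 0.57 (adjusted p = 0.0651), and without NP/Sed array 1, 2 or 3 it was 0.93 (adjusted p = 0.115), 1.02 (adjusted p = 0.0856) or 1.03 (adjusted p = 0.0757).

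Epb42 (chromosome 2, 121017891 to 121036877) encodes protein 4.2, which ties band 3 to the membrane skeleton. Its probe set of highest mean, 1417338_at, had 4.23, 4.30 and 4.27 in MP, against 4.19, 4.19 and 4.17 in NP/Sed. The MP arrays were all above those of NP/Sed, as at 10.1% of all probe sets of 1 gene, but by a narrow margin, and the difference did not pass the test (0.08 ± 0.10, 95% confidence interval -0.13 to 0.30, adjusted p = 0.798). Its second probe set, 1417337_at, differed by 0.03 ± 0.08. Of 18 further genes of the red-cell membrane and skeleton, 0 rose and 0 fell in MP, with a median difference of -0.02. Rhag and Rhd, the Rh proteins of the red-cell surface, differed by 0.16 (adjusted p = 0.467) and 0.14 (adjusted p = 0.556), and Ank1 and Sptb, the ankyrin and spectrin of its skeleton, by -0.09 (adjusted p = 0.707) and -0.02 (adjusted p = 0.954).

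Bpgm (chromosome 6, 34476356 to 34505136) makes bisphosphoglycerate, which lowers the oxygen affinity of hemoglobin in red cells. All 3 of its probe sets rose in MP. Probe set 1415864_at had 6.87, 6.71 and 7.18 in MP, against 6.19, 5.91 and 5.88 in NP/Sed (0.93 ± 0.11, adjusted p = 0.000439, rank 7 of 45037 by p). Probe set 1415865_s_at had 8.30, 7.96 and 8.61 in MP, against 7.47, 7.56 and 7.44 in NP/Sed (0.80 ± 0.12, adjusted p = 0.00388). Probe set 1448119_at had 7.04, 6.86 and 7.13 in MP, against 6.60, 6.41 and 6.60 in NP/Sed (0.47 ± 0.11, adjusted p = 0.0407). In each the MP arrays lay above the NP/Sed arrays, and only 1415864_at passed the 75% limit. Among 11 other red-cell enzymes 1 rose and 0 fell, with a median of 0.12, beside 1.17% of all genes that rose. That gene was Gpx1, a glutathione peroxidase that many tissues use (0.37 ± 0.08, adjusted p = 0.0239). The carbonic anhydrases Car1 and Car2, abundant in red cells, differed by 0.14 (adjusted p = 0.479) and 0.30 (adjusted p = 0.195).

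Tent5c (chromosome 3, 100468057 to 100489192) encodes a poly(A) polymerase of the cytoplasm. It had the largest log2 difference of the 8 genes in MP. At 1448021_at the MP arrays had 6.64, 6.69 and 7.43, against 5.28, 5.34 and 5.24 in NP/Sed. The lowest MP array was above every array of the other groups, and the difference was 1.63 ± 0.17 (95% confidence interval 1.27 to 2.0, adjusted p = 0.000278, rank 3 of 45037 by p), a 3.10-fold higher level. Leaving out each array in turn gave 1.38 to 1.77, with an adjusted p of at most 0.00447. Its second probe set, 1429682_at, had 4.62, 3.98 and 4.62 in MP, against 4.18, 4.26 and 4.51 in NP/Sed, which overlap (0.09 ± 0.14, adjusted p = 0.84).

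Tspan33 (chromosome 6, 29694214 to 29718558) encodes a tetraspanin first described in erythroid progenitors. Its probe set of highest mean, 1425157_x_at, had 4.12, 4.47 and 4.01 in MP, against 4.30, 4.28 and 4.33 in NP/Sed. The groups overlap (-0.10 ± 0.11, 95% confidence interval -0.34 to 0.13, adjusted p = 0.763), and the other 3 probe sets differed by -0.11, -0.10 and 0.02. Counted over probe sets, 8 of the 21 rose in MP. Counted over genes, 5 of the 8 members rose, beside 1.17% of all genes. All MP arrays lay above all NP/Sed arrays at 9 of the 21, beside 10.1% of all probe sets of 1 gene. These 9 include 1417338_at of Epb42, which did not rise.

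**Figure D2:**
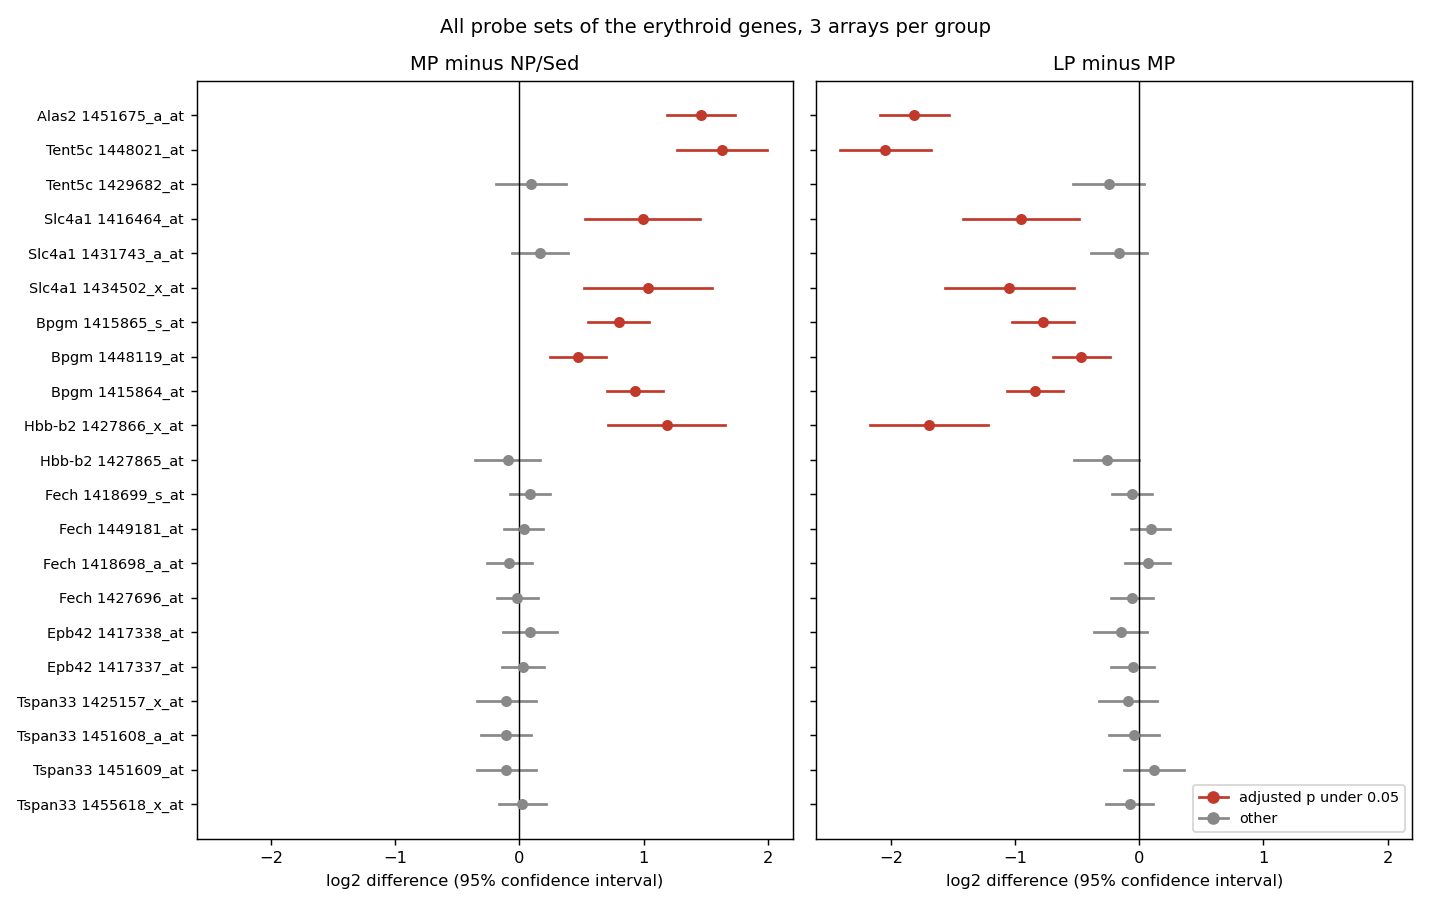
Log2 difference with its 95% confidence interval for each of the 21 probe sets, MP minus NP/Sed at the left and LP minus MP at the right, with 3 arrays in each group. The 8 probe sets with an adjusted p under 0.05 at the left (red) are the 8 at the right, with the opposite sign.

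In LP the rise was gone. Called genes among the members numbered 0 higher and 5 lower in LP against MP, beside 0.159% of all genes called lower and 1.03% lower by the adjusted p alone. This comparison shares the MP arrays with the one above, so its values are not a second test of the MP level. Alas2 had 6.92, 6.92 and 6.52 in LP, against 8.56, 8.29 and 8.94 in MP (-1.81 ± 0.13, adjusted p = 1.62e-06). Tent5c at 1448021_at had 5.13, 5.04 and 4.46 in LP, against 6.64, 6.69 and 7.43 in MP (-2.05 ± 0.17, adjusted p = 7.6e-06). The LP arrays of both genes were below the arrays of every other group. Hbb-b2 at 1427866_x_at had 6.51, 6.50 and 5.36 in LP, against 7.79, 7.55 and 8.11 in MP (-1.69 ± 0.23, adjusted p = 0.000899). Slc4a1 at 1416464_at had 4.08, 3.88 and 3.73 in LP, against 4.59, 4.27 and 5.70 in MP (-0.95 ± 0.22, adjusted p = 0.0375). Bpgm at 1415864_at had 6.20, 6.07 and 5.98 in LP, against 6.87, 6.71 and 7.18 in MP (-0.84 ± 0.11, adjusted p = 0.00076). In each of the 5 genes the LP and MP arrays did not overlap, as at 10.9% of all probe sets of 1 gene with LP below. The count was 3 without MP array 3 and 3 without LP array 3 (Alas2, Tent5c and Hbb-b2 in both cases).

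Against NP/Sed, LP had 0 members called and 0 with an adjusted p under 0.05, beside 0.0715% of all genes called lower and 0.352% called higher, and 0.77% lower and 2.2% higher by the adjusted p alone. At an unadjusted p under 0.05 the values leaned low for Alas2, with 6.92, 6.92 and 6.52 in LP, against 7.19, 7.24 and 6.98 in NP/Sed (-0.35 ± 0.13, 95% confidence interval -0.62 to -0.07, adjusted p = 0.225). Tent5c showed the same order, 5.13, 5.04 and 4.46 in LP, against 5.28, 5.34 and 5.24 in NP/Sed (-0.41 ± 0.17, 95% confidence interval -0.78 to -0.05, adjusted p = 0.291). All LP arrays lay below all NP/Sed arrays in these 2 genes, as at 8.26% of all probe sets of 1 gene. Counting every member probe set, 6 of the 21 had this order. The others were 1427865_at of Hbb-b2, 1417338_at of Epb42, and 1425157_x_at and 1451608_a_at of Tspan33. Hbb-b2 averaged 6.56 in LP against 6.92 in NP/Sed at 1427865_at. At 1427866_x_at, where the arrays overlap, it averaged 6.12 against 6.63. Slc4a1 and Bpgm differed by 0.04 ± 0.22 and 0.09 ± 0.11 (at 1416464_at and 1415864_at). Among the several-gene globin sets, 1417714_x_at was lower, at 10.03, 10.15 and 9.63 in LP, against 10.54, 10.80 and 10.65 in NP/Sed (-0.73 ± 0.13, adjusted p = 0.00757), and the other 3 had differences of -0.29 to -0.35 that did not pass. LP array 3 was the lowest LP array in all 5 of Alas2, Tent5c, Slc4a1, Bpgm and Hbb-b2. That array also had 6.60 for S100a8, a neutrophil gene, against 5.19 and 4.95 in the other LP arrays, and the part of this in its erythroid values was not tested.

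Within 12 hours of birth the levels lay between those of LP and MP. Called genes numbered 3 higher and 0 lower in 0PP against LP (Alas2, Tent5c and Hbb-b2), beside 0.121% of all genes called higher and 1.05% higher by the adjusted p alone. Alas2 had 7.68, 7.84 and 7.69 in 0PP, against 6.92, 6.92 and 6.52 in LP (0.95 ± 0.13, adjusted p = 0.00177). Tent5c had 6.00, 5.94 and 5.87 in 0PP, against 5.13, 5.04 and 4.46 in LP (1.06 ± 0.17, adjusted p = 0.00527). Hbb-b2 at 1427866_x_at had 6.97, 7.42 and 7.05 in 0PP, against 6.51, 6.50 and 5.36 in LP (1.02 ± 0.23, adjusted p = 0.0364). None of the 0PP arrays overlapped the LP arrays in these genes, as at 8.92% of all probe sets of 1 gene with 0PP above. Hbb-b2 was no longer called without LP array 3 or without any 1 of the 3 0PP arrays, which left Alas2 and Tent5c. Bpgm at 1415864_at rose by 0.48 ± 0.11 (adjusted p = 0.0387), under the 75% limit, and Slc4a1 at 1416464_at differed by 0.29 ± 0.22 (adjusted p = 0.742). The 4 several-gene globin sets rose by 0.46 to 0.95.

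Against NP/Sed, 2 members rose in 0PP, beside 3.07% of all genes, and 0 were called, beside 0.165%. Alas2 had 7.68, 7.84 and 7.69 in 0PP, against 7.19, 7.24 and 6.98 in NP/Sed (0.60 ± 0.13, adjusted p = 0.0281), and Bpgm at 1415864_at had 6.62, 6.53 and 6.55 in 0PP, against 6.19, 5.91 and 5.88 in NP/Sed (0.57 ± 0.11, adjusted p = 0.0145). The groups did not overlap in either gene. Tent5c at 0.64 ± 0.17 (adjusted p = 0.0586) and Hbb-b2 at 0.52 ± 0.23 (adjusted p = 0.237) also had all 0PP arrays above all NP/Sed arrays, as at 12.2% of all probe sets of 1 gene. A comparison of 0PP with MP was added after these levels were seen. There Alas2 differed by -0.86 ± 0.13 (adjusted p = 0.0158) and Tent5c by -0.99 ± 0.17 (adjusted p = 0.0267), 2 members called lower beside 0.055% of all genes, and no other member passed.

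Wheel running gave no change that passed the test. In 7EX and in 21EX against NP/Sed, 0 members passed the adjusted p, beside 0.874% of all genes higher in 7EX and 2.98% in 21EX by that test and 0.11% and 0.044% called higher. None of the 21 probe sets passed it. For Alas2 the values were 7.21, 7.24 and 7.17 in 7EX and 7.39, 7.30 and 7.24 in 21EX, against 7.19, 7.24 and 6.98 in NP/Sed. These overlap, with differences of 0.07 (95% confidence interval -0.20 to 0.35) and 0.17 (95% confidence interval -0.10 to 0.45). The nearest to the threshold was Bpgm at 1415864_at, with 6.49, 6.42 and 6.27 in 21EX, against 6.19, 5.91 and 5.88 in NP/Sed (0.40 ± 0.11, adjusted p = 0.0526), where the groups did not overlap, as at 14.2% of all probe sets of 1 gene. Set directly against exercise, MP had 4 called members against 7EX, beside 0.231% of all genes, and 3 against 21EX, beside 0.165%. Alas2 was higher in MP by 1.39 ± 0.13 and 1.29 ± 0.13, Tent5c by 1.48 ± 0.17 and 1.40 ± 0.17, and Hbb-b2 by 1.07 ± 0.23 and 1.09 ± 0.23, over 7EX and 21EX in that order. Slc4a1 was called against 7EX at 1434502_x_at (1.12 ± 0.25, adjusted p = 0.0434). With the 3′ minus 5′ signals of the actin and Gapdh control probe sets, a sign of RNA length, as a covariate, 0 members were called against 7EX and 2 against 21EX (Alas2 and Tent5c). The actin signal averaged 1.33 ± 0.02 in MP, 1.08 ± 0.02 in 7EX and 1.19 ± 0.03 in 21EX (SD, n = 3 each), and its part in these calls was not tested further. With 1 array left out, the count against 7EX was 2 (Alas2 and Tent5c) without 7EX array 1, 2 or 3 or MP array 1 or 3, and 4 without MP array 2. Against 21EX it was 2 to 4.

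In order of group mean, Alas2 and Tent5c were lowest in LP, then NP/Sed, 7EX, 21EX, 0PP and MP. Neighbours in this order did not all differ beyond their spread. The arrays of NP/Sed and 7EX overlap in Alas2, as do those of 7EX and 21EX in Tent5c, whereas 0PP overlaps neither 21EX nor MP in either gene. Slc4a1 and Bpgm had NP/Sed lowest with LP next, and Hbb-b2 had LP lowest, and in all 5 genes the 2 highest groups were 0PP and MP. In MP and in LP the arrays also kept much the same order across genes. In 0PP, by contrast, no array was the highest or the lowest in more than 2 of the 5 genes. MP array 3 was the highest MP array in all 5 genes and MP array 2 the lowest in 4 of them.

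Across the 18 arrays, which share these 6 groups, Alas2 had Pearson correlations of 0.99 with Tent5c, 0.93 with Hbb-b2 (1427866_x_at), 0.92 with Bpgm (1415864_at) and 0.85 with Slc4a1 (1416464_at). For Fech, Epb42 and Tspan33 at the probe sets of highest mean the values were 0.31, 0.42 and -0.10. In each of the 5 genes that rose, at these probe sets, the 3 MP arrays were the highest of the 18. The correlations among these 5 genes therefore in part restate their rise in MP.

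**Figure D3:**
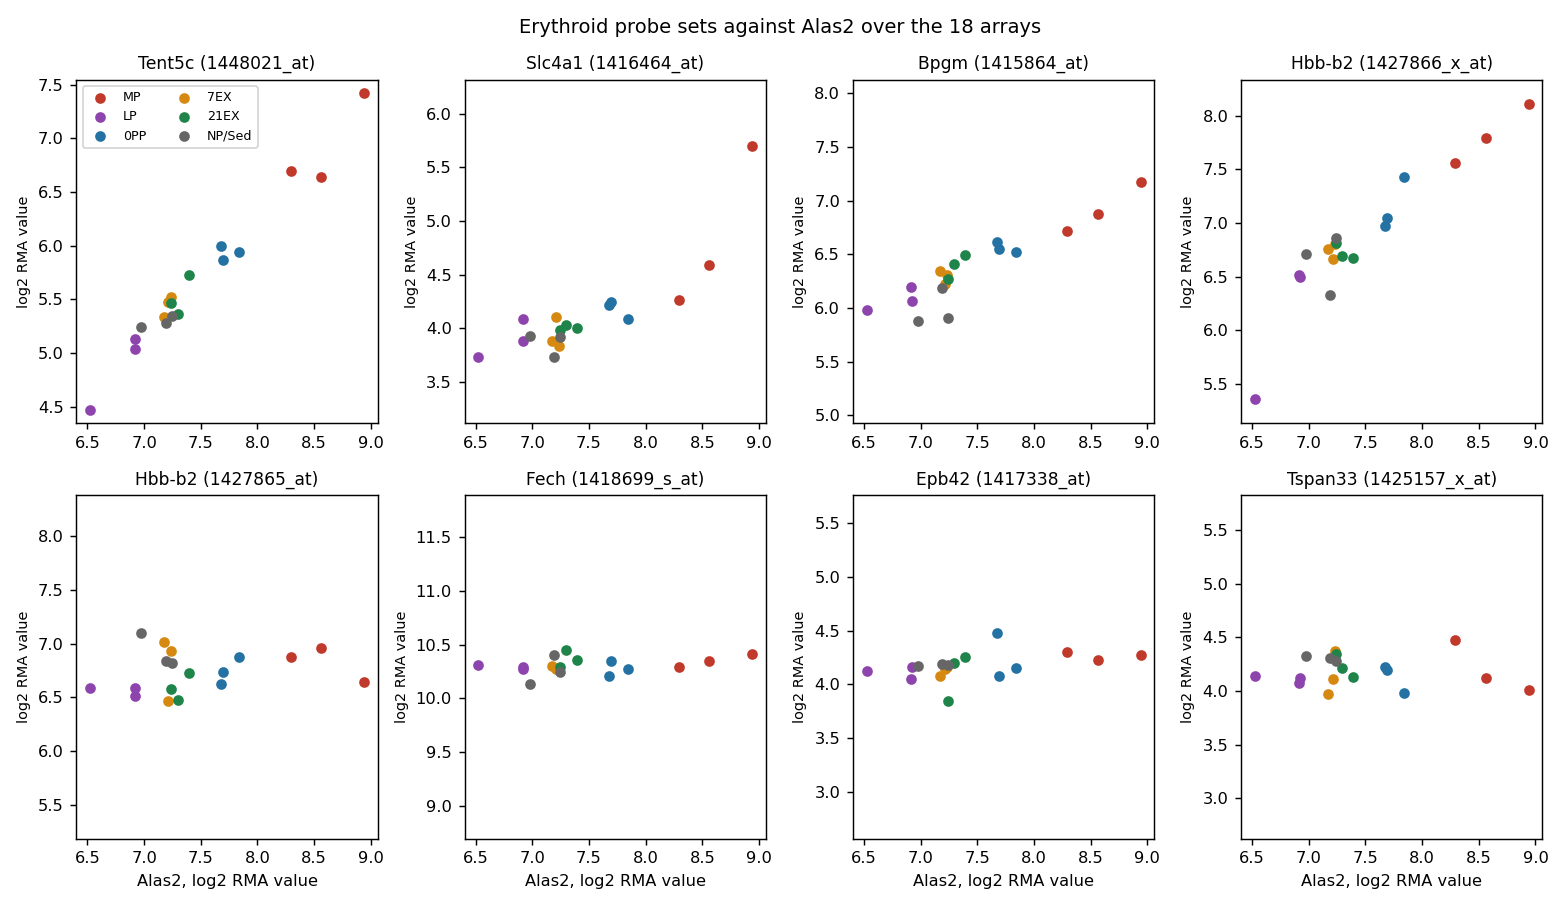
Log2 RMA value of 8 probe sets (y axes) against that of Alas2 (x axis) on the 18 arrays, coloured by group. Tent5c, Slc4a1, Bpgm and Hbb-b2 1427866_x_at, which rose in MP, have r from 0.85 to 0.99 with Alas2. Hbb-b2 1427865_at, Fech, Epb42 and Tspan33, which did not rise, have r from -0.10 to 0.42. The MP arrays are among the 18, so r in part restates the MP rise.

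The genes outside the set most like it were found by correlation with the mean of the 8 members, each centred on its mean over the 18 arrays, among 1866 probe sets with a range of at least 1. Cd24a was first (r = 0.85), a surface glycoprotein that mouse red cells carry. It was followed by Apol11b (0.83), Isg20 (0.83), Glt28d2 (0.81), Tfrc (0.79) and Mkrn1 (0.77). Then came Cdr2 (0.77), Adamts9 (0.76), Trp53inp1 (0.75), Hand2 (0.75), Fry (0.75) and Col1a2 (0.74). Of these 12 genes 11 were also among the 12 most like a profile built from the probe sets of smallest F-test p. Cd24a differed by 1.0 ± 0.19 and Apol11b, an apolipoprotein L, by 1.19 ± 0.18 between MP and NP/Sed, given without a test because the genes were picked on these arrays. The correlations are Pearson correlations of log2 values over arrays of the same 6 groups and carry no p-value.

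Other genes of the red-cell programme moved in part. Of 16 genes linked to reticulocyte maturation 3 rose and 0 fell in MP, with a median of 0.04, beside 1.17% of all genes that rose. Isg20, an exonuclease, had 7.29, 7.34 and 7.80 in MP, against 6.61, 6.75 and 6.40 in NP/Sed (0.89 ± 0.16, adjusted p = 0.0102), and was lower in LP than in MP (-0.97 ± 0.16, adjusted p = 0.00361). Ube2l6, which joins ISG15 to proteins, had 5.93, 5.72 and 6.02 in MP, against 4.95, 4.88 and 4.53 in NP/Sed (1.10 ± 0.19, adjusted p = 0.00934). Both are also known as genes induced by interferon, and the MP and NP/Sed arrays did not overlap in either. Mkrn1, a ubiquitin ligase, rose by 0.45 ± 0.09 at 1455504_a_at (adjusted p = 0.0241) and by 0.52 ± 0.14 at 1418435_at, where it did not pass (adjusted p = 0.0738).

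No nuclear factor of the erythroid line passed the test in MP. Of 14 erythroid transcription factors and receptors 0 rose and 0 fell in MP, with a median of 0.04. Gata1 differed by -0.02 (adjusted p = 0.958), Klf1 by 0.03 (adjusted p = 0.932) and Epor, the erythropoietin receptor, by 0.28 (adjusted p = 0.302). Tfrc, the transferrin receptor that takes up iron, had 10.14, 10.04 and 10.48 in MP, against 9.47, 9.44 and 9.35 in NP/Sed at 1452661_at. The groups were apart but the difference did not pass (0.80 ± 0.20, adjusted p = 0.0595). At this probe set Tfrc was lower in LP than in MP (-1.11 ± 0.20, adjusted p = 0.00772), where LP array 3 had 8.44 and the other LP arrays 9.31 and 9.58. The dimmer Tfrc probe sets 1422966_a_at and 1422967_a_at averaged 5.28 and 5.55 in MP, against 5.30 and 5.48 in NP/Sed, and their arrays overlap.

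**Figure D4:**
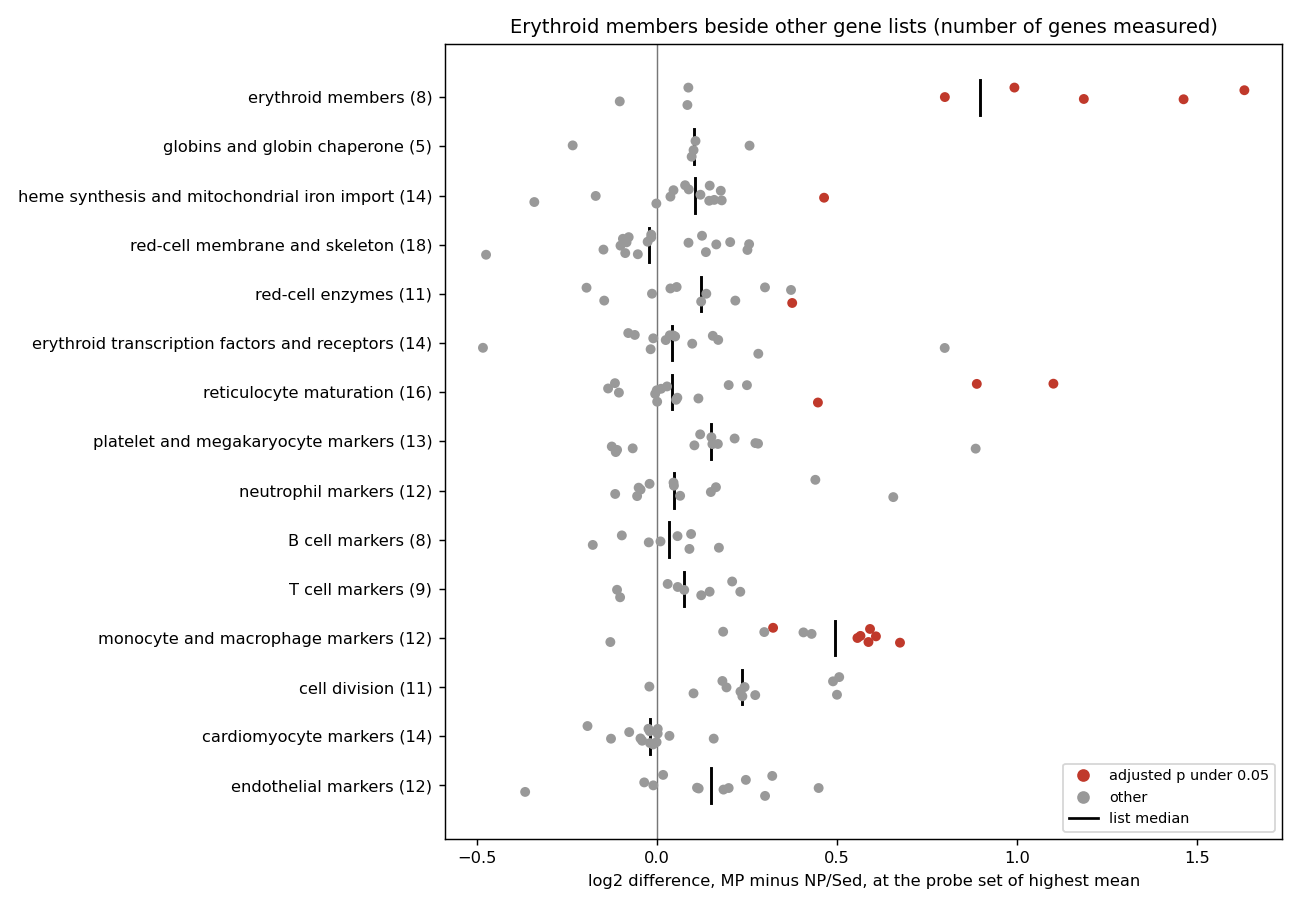
Log2 difference, MP minus NP/Sed, of each gene at its probe set of highest mean, for the 8 erythroid members and 14 other gene lists (number of genes measured in brackets), with the list median as a black bar. The members have a median of 0.90 and the monocyte and macrophage markers of 0.49, and the medians of the other lists lie between -0.02 and 0.24.

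Markers of other blood cells were read beside the erythroid genes. Of 13 platelet, 12 neutrophil, 8 B cell and 9 T cell markers, 0 rose and 0 fell in MP, with medians of 0.15, 0.05, 0.03 and 0.08. Pf4, the platelet factor, differed by 0.21 (adjusted p = 0.379), S100a8 by -0.05 and Cd79a, a B cell gene, by -0.18. By contrast 7 of 12 monocyte and macrophage markers rose, beside 1.17% of all genes, with a median of 0.49 and none past the 75% limit. They included the complement genes C1qa (0.59 ± 0.11, adjusted p = 0.0173), C1qb (0.67 ± 0.14, adjusted p = 0.0259) and C1qc (0.59 ± 0.10, adjusted p = 0.00874) and the hemoglobin scavenger receptor Cd163 (0.61 ± 0.11, adjusted p = 0.0163). The log2 of the summed level of these 12 markers was 12.52 to 12.72 in MP, 12.47 to 12.64 in 7EX and 12.49 to 12.64 in 21EX, against 12.08 to 12.32 in NP/Sed. Against NP/Sed, 4 of the 12 rose in 0PP, where Alas2 and Bpgm also rose, beside 3.07% of all genes. No erythroid member rose in LP, 7EX or 21EX. There 1, 2 and 3 of the 12 markers rose, beside 2.2%, 0.874% and 2.98% of all genes, and the 1 in LP passed the 75% limit. The part of these markers in the erythroid values was not tested.

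Cardiomyocyte markers were high in all groups. The log2 summed level of 14 cardiomyocyte markers had a median of 17.98 in MP, against 18.02 in NP/Sed. Of the 14, 0 rose and 1 fell, beside 0.94% of all genes that fell. The fall was at 1 of the probe sets of Myh6, the alpha myosin heavy chain (-0.93 ± 0.22, adjusted p = 0.0452). Array medians lay between 4.94 and 5.03. The 3′ minus 5′ signal of the beta-actin control probe sets averaged 1.33 ± 0.02 in MP and 1.21 ± 0.13 in NP/Sed (SD, n = 3 each), and that of Gapdh 0.04 ± 0.02 in MP and 0.01 ± 0.09 in NP/Sed. With these signals as a covariate, 3 members were called in MP against NP/Sed (Alas2, Tent5c and Bpgm).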

How the data were processed

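RNA of 18 pools of 2 to 3 left ventricles was hybridised to Affymetrix Mouse Genome arrays. The log2 values deposited by the authors are RMA values (background correction, normalization and summarization over all arrays). No depth exists for arrays, and 3 arrays a group limit the precision. Of 45101 probe sets 64 controls were left out. The platform annotation gives 34945 of the others 1 gene, 932 several and 9160 none. The 8 members and all gene lists were chosen with earlier results of these data known.

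One limma model (3.58.1, R 4.3.3) with 6 groups was fitted over all 45037 probe sets (12 residual and 6.45 prior degrees of freedom), with two-sided moderated tests and Benjamini-Hochberg adjustment within each comparison. The study tested with Cyber-T, which was run as an alternative (prior weight 10). The limit of 75% is the one in its methods. Named are all member probe sets, list genes past an adjusted p of 0.05 in MP (at most 6 of smallest p a list), a fixed set of defining genes, and the 12 genes most like the members. Alas1, Rhag, Rhd, Ank1, Sptb and the several-gene globin sets were named after their values were seen. The probe set of highest mean stands for a gene with several. Genes without a probe set of their own are not analysed here. Array numbers are labels of pools and were checked for pairing. The scripts were tested on simulated data.

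Alternatives were each array left out, Cyber-T, a replicate block, fits of only the 2 groups, no fold limit, the count without the globin member, averaging the probe sets of a gene, median centring, a second quantile normalization, limma's trend option, a floor of 5 on the mean log2 value, and the 3′ minus 5′ signals as covariates. Using only the probe set of highest mean, and comparing 0PP with MP, were chosen after seeing the data. Gene positions and promoter windows are from RefSeq (GRCm38.p6).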

Additional observations from a re-analysis of the deposited data

Results flagged for a closer look

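At the probe set of highest mean, some members' effects against NP/Sed differed between 2 states, by a direct comparison of the states. Between LP and MP the differences were -1.81 for Alas2, -2.05 for Tent5c, -0.95 for Slc4a1 and -1.69 for Hbb-b2. Between 0PP and LP they were 0.95, 1.06 and 1.02 for Alas2, Tent5c and Hbb-b2. Between MP and 7EX they were 1.39, 1.48 and 1.07 for the same 3 genes, and between MP and 21EX 1.29, 1.40 and 1.09. Each had a limma adjusted p under 0.05 and passed the 75% limit at that probe set, while Bpgm (LP against MP) and Slc4a1 (MP against 7EX) were called at another probe set. Between MP and 7EX all 3 lost the call once the 3′ minus 5′ signals entered the model.

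Outside the member probe sets, 2 probe sets that match several globin genes were higher in MP than in NP/Sed, 1417184_s_at by 0.57 and 1417714_x_at by 0.90. They stand outside the members because each matches more than 1 gene.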

How the results depend on the processing

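Counts of called members in MP against NP/Sed (5), LP against MP (5), 0PP against LP (3), MP against 7EX (4) and 0PP against NP/Sed (0) moved by over 1.5 times under the alternatives below, that of MP against 21EX (3) did not, and the direction of no member value past the test turned. With the mean of a gene's probe sets the counts were 2 (Alas2, Tent5c), 3, 1 and 2 for the first 4 of these comparisons. That mean includes the probe sets that did not move. With only the 2 groups fitted LP against MP gave 3, and the cause was not tested. With the 3′ minus 5′ covariate MP against NP/Sed gave 3 and MP against 7EX gave 0, and the cause was not tested. Without the fold limit 0PP against NP/Sed gave 2 in place of 0. Taking only the probe set of highest mean gave 4 for MP against NP/Sed and 4 for LP against MP. It gave 3 for MP against 7EX, and Bpgm was called in none of these 3 comparisons. Leaving out 1 array gave 2 to 5 for MP against NP/Sed, 3 to 5 for LP against MP, 2 to 4 for MP against 7EX, 2 to 4 for MP against 21EX, 2 to 3 for 0PP against LP, and 0 for the rest.

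Alas2, Tent5c and Bpgm in MP kept an adjusted p under 0.05 in every alternative tried. Slc4a1 at 1416464_at did not pass with only the 2 groups (difference 0.99, adjusted p = 0.161) or with the covariate (0.89, adjusted p = 0.176), nor Hbb-b2 at 1427866_x_at with the covariate (1.07, adjusted p = 0.0993), against 0.99 and 1.19 as reported, beside the arrays named above. With a mean log2 value of at least 5, Slc4a1 was not tested. Same-numbered arrays of MP and NP/Sed had residual correlations of 0.08, 0.02 and 0.12, so the numbers do not pair the pools, and with a replicate block the counts were 5 in MP against NP/Sed and LP against MP, 2 in 0PP against LP, 4 in MP against 7EX and 3 in MP against 21EX. The deposited values carry no background level. How far the dim probe sets of Slc4a1, Epb42, Tspan33, Hba-a1, Hba-a2 and Gata1 lie above such a level is unknown.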
